A study of Mus musculus with 36 samples.

Results

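The genes described here are 9 genes of the B lymphocyte lineage, Vpreb1, Vpreb3, Igll1, Rag1, Cd79a, Cd79b, Ms4a1, Pax5 and Ebf1, followed in the whole liver of developing mice. They were chosen by name, and all 9 were found among the 21889 gene symbols of the deposited table. Livers of 36 male C57BL/6 mice (C57BL/6J in the study's methods), for which no engineered allele or treatment is given, were measured by RNA-Seq, with 3 mice at each of 12 ages. The first age is GD17.5, late in gestation, which the labels give as day -2 from birth. The next are Day 0, at birth before any suckling, and Days 1, 3 and 5, then Days 10, 15 and 20, and then Days 25, 30, 45 and 60. Day 60, the oldest age, served as the control for the 11 comparisons with it. Abundance is given as FPKM, the number of sequenced fragments scaled by the exon length of the gene and by the mapped fragments of the library, so that levels can be compared between genes. The tissue label held in the data: Alb, which encodes serum albumin, was between 2883 and 43414 FPKM in the mice of GD17.5 to Day 5 and of Days 25 to 60.

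Before birth the liver is the main site of blood formation, and B cells are made there from lymphoid progenitors until the bone marrow takes over around birth. A progenitor first cuts and rejoins its immunoglobulin heavy chain gene with the RAG1 and RAG2 recombinase. The new heavy chain is then tested in the pre-B cell receptor, in which VpreB and lambda5 (encoded by Vpreb1, Vpreb2 and Igll1) stand in for a light chain and Cd79a and Cd79b carry the signal into the cell. Cells that pass make a true light chain, shut off the surrogate one, keep Cd79a and Cd79b, and gain Ms4a1 (CD20) on the surface. Ebf1 and Pax5 are the transcription factors that start and hold this program.

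The 9 genes were placed on mm9, the genome build of the files. Igll1 (chr16:16860764-16864078, minus strand) and Vpreb1 (chr16:16868495-16870936, minus strand) are neighbors, with 4416 bases between them. Cd79a lies at chr7:25682400-25687216 (plus strand), Cd79b at chr11:106172655-106176076 (minus), Vpreb3 at chr10:75405802-75412402 (plus), Rag1 at chr2:101478439-101489658 (minus), Ms4a1 at chr19:11324654-11340669 (minus), Pax5 at chr4:44544017-44724318 (minus) and Ebf1 at chr11:44430819-44821593 (plus). The transcripts of Vpreb1 and Vpreb2 were 97.4% identical, with 20 of 766 bases that differed, so that the split of fragments between these genes is uncertain. The exons of Vpreb1 also share 108 bases with Top3b on the opposite strand, those of Pax5 125 bases with Gm12462 on the opposite strand, and those of Rag1 80 bases with B230118H07Rik. A pseudogene with the symbol Ebf1 shares 453 bases of its exons.

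Start-site windows of 300 bases (250 before the start and 50 after it) were found in the RefSeq table for 7 of the 9 genes, 8 windows in all, since Ebf1 has more than 1. Cd79b and Ms4a1 had no entry. Each window matched mm9 exactly and at 1 place. Both strands were searched for the E-box CAGGTG, the kind of site that E proteins such as E2A bind, for the octamer ATGCAAAT, and for the EBF core CCCNNGGG. CAGGTG was found in 4 of the 8 windows and in 20.2% of the 32851 windows of all genes. The octamer was found in 1 of 8 and in 1.74% of all, and the EBF core in 1 of 8 and in 13.7% of all. The 5 windows that hold CAGGTG or the octamer are shown 5′ to 3′ on the strand of the gene, with every match to the 3 motifs in capitals. No matches overlapped. A match is a run of letters and not evidence of binding.
Cd79a (chr7:25682266-25682565, E-box): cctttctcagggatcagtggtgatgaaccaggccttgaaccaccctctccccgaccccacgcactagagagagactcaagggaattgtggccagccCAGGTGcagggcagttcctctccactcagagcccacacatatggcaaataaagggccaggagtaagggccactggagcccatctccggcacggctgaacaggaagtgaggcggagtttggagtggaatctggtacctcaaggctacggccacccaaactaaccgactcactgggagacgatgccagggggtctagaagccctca
Vpreb1 (chr16:16869299-16869598, E-box): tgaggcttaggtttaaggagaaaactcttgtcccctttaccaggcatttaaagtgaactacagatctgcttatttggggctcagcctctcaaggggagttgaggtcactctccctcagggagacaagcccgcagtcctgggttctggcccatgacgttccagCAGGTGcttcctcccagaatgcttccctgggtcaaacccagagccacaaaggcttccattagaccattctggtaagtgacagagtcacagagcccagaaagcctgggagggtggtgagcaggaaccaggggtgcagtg
Igll1 (chr16:16864029-16864328, EBF core, then E-box on the other strand): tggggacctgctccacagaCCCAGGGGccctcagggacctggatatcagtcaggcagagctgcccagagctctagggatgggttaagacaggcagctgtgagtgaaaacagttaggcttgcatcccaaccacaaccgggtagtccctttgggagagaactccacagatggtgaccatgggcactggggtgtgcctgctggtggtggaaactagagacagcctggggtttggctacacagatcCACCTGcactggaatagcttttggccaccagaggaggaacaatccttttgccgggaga
Rag1 (chr2:101489640-101489939, E-box): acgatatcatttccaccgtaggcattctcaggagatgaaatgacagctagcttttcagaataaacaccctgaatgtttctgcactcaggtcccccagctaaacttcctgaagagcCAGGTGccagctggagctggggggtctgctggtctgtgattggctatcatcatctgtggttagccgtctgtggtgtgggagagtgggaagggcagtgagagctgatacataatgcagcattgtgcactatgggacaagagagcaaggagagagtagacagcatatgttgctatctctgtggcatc
Vpreb3 (chr10:75410795-75411094, octamer on the other strand): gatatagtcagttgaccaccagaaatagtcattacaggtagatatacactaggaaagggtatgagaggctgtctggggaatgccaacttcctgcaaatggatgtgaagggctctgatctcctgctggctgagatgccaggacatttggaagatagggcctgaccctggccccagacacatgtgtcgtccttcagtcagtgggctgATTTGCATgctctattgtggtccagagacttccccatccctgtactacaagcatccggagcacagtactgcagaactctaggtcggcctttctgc
In Cd79a the E-box ended 149 bases before the start, in Rag1 130 bases and in Vpreb1 83 bases before it. In Igll1 it ended 3 bases before the start. The octamer of Vpreb3 ended 38 bases before the start. These distances are counted from the RefSeq start of each window. For Vpreb1 and Vpreb3 the whole window lies inside the gene span given above, so that this start is not the outer start of that span.

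To evaluate the course of the 9 genes, levels were first compared over 3 spans of age: GD17.5 to Day 5 (15 mice), Days 10 to 20 (9 mice) and Days 25 to 60 (12 mice). All 9 genes had their highest age mean between Day 0 and Day 3 and were low after Day 20. Their summed level was between 33.5 and 102 FPKM in the 15 youngest mice, between 3.87 and 35.7 FPKM at Days 10 to 20 and between 1.46 and 3.53 FPKM at Days 25 to 60. By age, the sum was 42.3 ± 8.5 FPKM (SD, n = 3) before birth, 91.7 ± 9.08 FPKM on Day 0 and 2.65 ± 1.07 at Day 60. In whole liver, fewer cells of a lineage and less RNA per cell cannot be told apart.

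**Figure D1:**
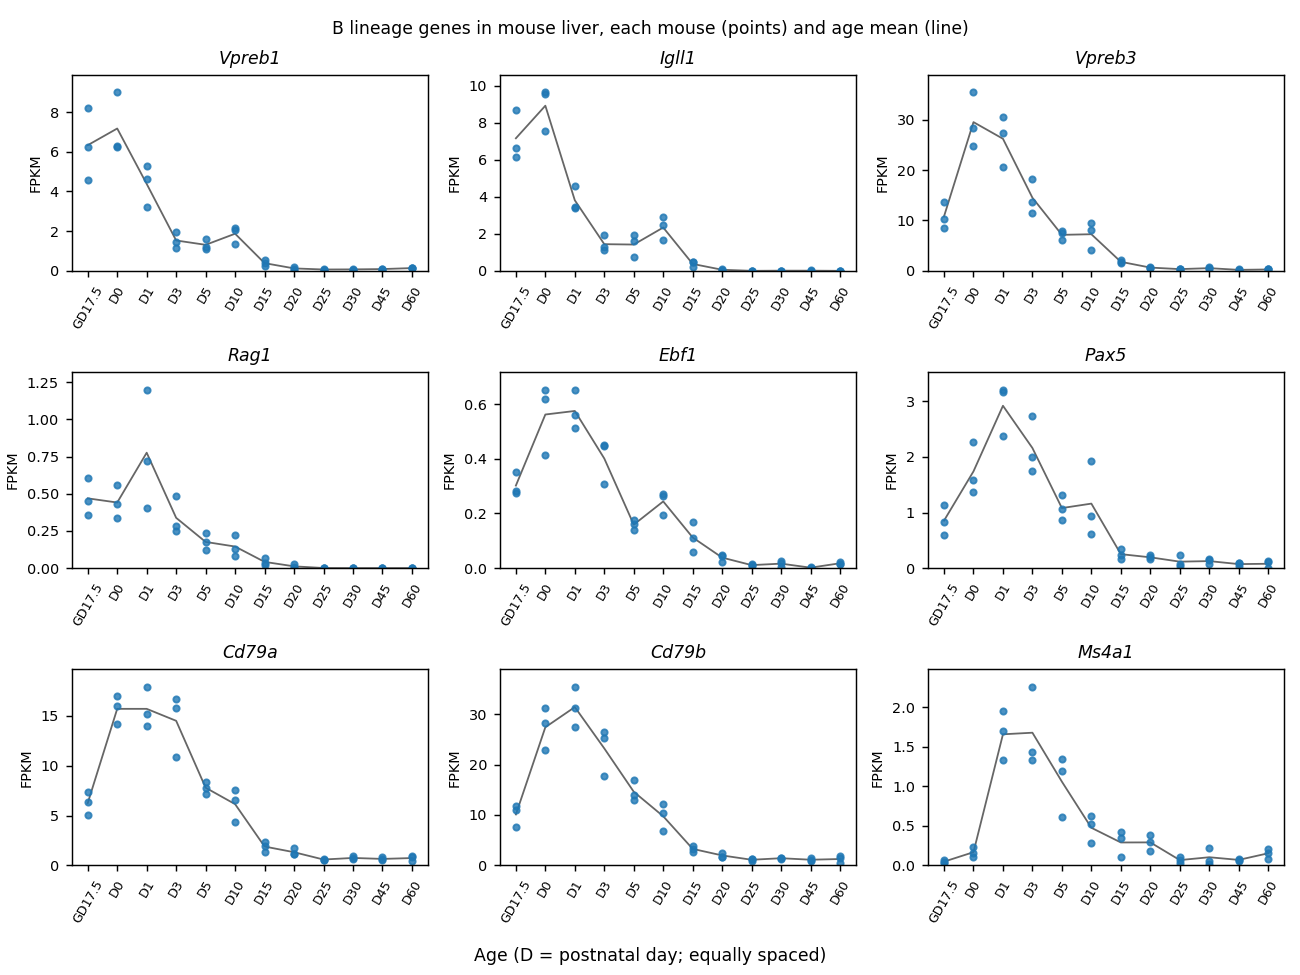
FPKM (linear axis from 0, a separate scale for each gene) of the 9 genes against age, with 1 point for each of the 3 mice of an age and a line through the age means. Vpreb1 and Igll1 were already near their highest level at GD17.5, and Cd79a, Cd79b and Vpreb3 were highest at Day 0 or Day 1. Ms4a1 stayed under 0.23 FPKM until Day 0 and was highest at Days 1 and 3, with means of 1.66 and 1.68 FPKM.

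Of the 9 genes, 7 passed the filter of at least 1 FPKM on average in at least one age and were tested with limma on log2(FPKM + 1). Rag1 and Ebf1 did not pass, with highest age means of 0.776 and 0.575 FPKM. All 7 were changed from Day 60 in at least one age, as were 90.7% of the 11149 genes tested, so that this count does not set the 7 genes apart. Of the 7, 6 reached 1 FPKM only at younger ages, since their highest means at Days 25 to 60 were between 0.00897 and 0.745 FPKM, and Cd79b alone (1.42 FPKM) reached it there. Genes that enter the test in this way had to differ from the oldest ages, so that the counts and medians against those ages describe the 7 genes and support nothing further. With that limit, all 7 were higher at GD17.5 to Day 5 than at Days 25 to 60, as were 70.2% of all genes. The log2 fold changes ran from 0.69 to 3.62 with a median of 2.21, and the median of all genes tested was 0.54. When every library was brought to the same upper quartile, the median of all genes went down to 0.14 and that of the 7 to 2.00. At Days 10 to 20 the 7 were again higher than at Days 25 to 60, as were 44.9% of all genes. Fold changes on this scale understate the change of genes that are low.

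Taken age by age, 6 of the 7 genes were higher than at Day 60 at GD17.5 (56.4% of all genes) and at Day 0 (43.6%), the exception being Ms4a1. All 7 were higher at Day 1 (53.4% of all genes), Day 3 (55.7%), Day 5 (56.9%) and Day 10 (35.3%). At Day 15 the count was 4 (Vpreb3, Igll1, Cd79a and Cd79b), against 18.4% of all genes. The call for Ms4a1 at Day 10 (log2 fold change 0.35) was lost without mouse 1 or 3 of Day 10 (0.33 and 0.28) or mouse 1 or 3 of Day 60 (0.31 and 0.36), and that for Igll1 at Day 15 without mouse 1 or 2 of that age or any one mouse of Day 60. From Day 20 on, limma called 0 of the 7, while of all genes 8.93% were higher at Day 20, 4.18% on Day 25, 1.77% on Day 30 and 0.0628% on Day 45. At an unadjusted p under 0.05, 2 of the 7 were higher at Day 20 and 0 at Days 25, 30 and 45. Dunnett's comparison of each of the 9 genes on its own likewise called 0 at Days 20 to 45.

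**Figure D2:**
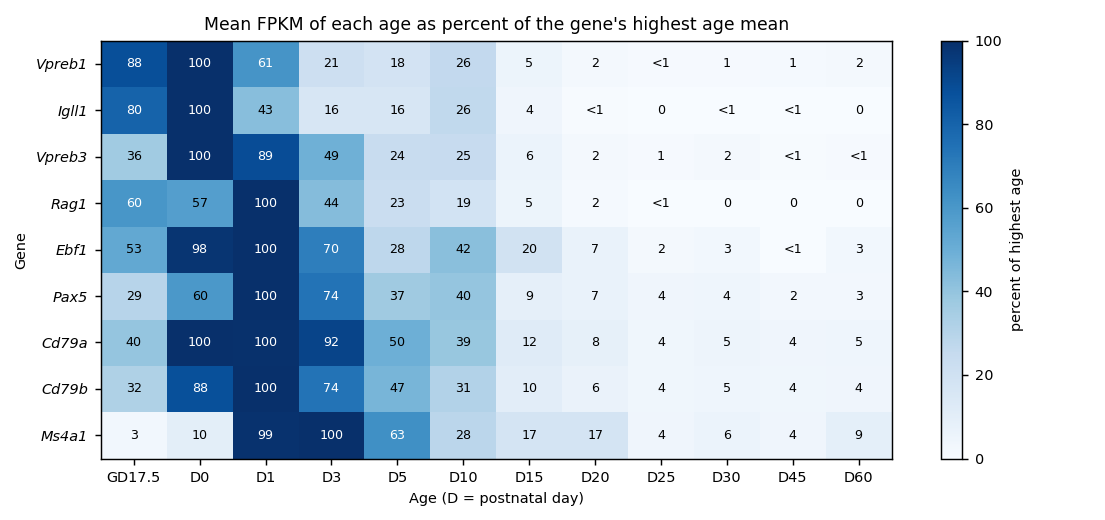
Mean FPKM of each age (columns) as a percentage of the highest age mean of the same gene (rows), over 3 mice at each age. From Day 25 on, each of the 9 genes was under 10% of its highest mean, and Ms4a1 at GD17.5 was at 2.81%.

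Vpreb1 and Igll1, the genes of the surrogate light chain, were the earliest. Igll1 was at 6.14, 6.63 and 8.69 FPKM in the 3 mice of GD17.5 and at 7.57, 9.64 and 9.56 FPKM at Day 0. It was at 3.37, 4.60 and 3.47 FPKM at Day 1, so that each Day 1 mouse was below every mouse of the previous ages. From Day 0 to Day 1 Igll1 fell by 1.05 on the log2 scale (SE 0.16) by limma (adjusted p = 1.05e-05). Igll1 was listed at 0 in 9 of the 12 mice of Days 25 to 60 and at most at 0.0261 FPKM in the others.

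Vpreb1 followed the same order. The GD17.5 mice were at 4.57, 6.23 and 8.19 FPKM, those of Day 0 at 6.26, 8.99 and 6.27 FPKM, and those of Day 1 at 3.23, 4.64 and 5.28 FPKM. GD17.5 and Day 0 overlapped, and so did GD17.5 and Day 1. From Day 0 to Day 1 Vpreb1 fell by 0.61 on the log2 scale (limma, adjusted p = 0.00498), a call that was lost without mouse 1 of Day 1 (-0.44) and with a pseudocount of 0.1 (-0.71). From Day 1 to Day 3 it fell by 1.08 and Igll1 by 0.99, to 1.53 ± 0.409 and 1.44 ± 0.426 FPKM (SD, n = 3). Vpreb1 did not reach 0 in the older mice, where it was between 0.0294 and 0.144 FPKM. Top3b, whose exons overlap it on the opposite strand, was at 3.01 to 3.42 FPKM on average at Days 25 to 60, and the kit does not mark strand, so that fragments of the shared bases cannot be told apart.

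Vpreb2, the near copy of Vpreb1, was lower and had the same highest age. In the 15 youngest mice it ranged from 0.247 to 2.53 FPKM, and in the 12 oldest it was at most 0.0339 FPKM. Vpreb2 peaked at Day 0 with a mean of 1.87 FPKM, and the log2 fold change between the spans was 0.97 ± 0.07 (limma, adjusted p = 1.04e-13). Its mean reached 1 FPKM only at GD17.5 and Day 0. Vpreb2 thus had to differ from the oldest ages to be tested, and this fold change is a description.

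Vpreb3, which encodes a VpreB-like protein that binds immunoglobulin chains inside pre-B cells, was the most abundant of the 3 genes of this name. It was at 8.44, 10.3 and 13.6 FPKM at GD17.5, at 24.7, 28.4 and 35.4 FPKM at Day 0, and at 20.5, 27.3 and 30.6 FPKM at Day 1. Vpreb3 rose from GD17.5 to Day 0 by 1.38 ± 0.20 on the log2 scale (limma, adjusted p = 2.22e-06). For Vpreb1 and Igll1 the same step was 0.17 and 0.29 and did not pass the test, and the difference between the genes was not tested. Vpreb3 fell from Day 1 to Day 3, again to Day 5 and again from Day 10 to Day 15, and was between 0.117 and 0.767 FPKM at Days 25 to 60. Between the youngest and the oldest span Vpreb3 had a log2 fold change of 3.62 ± 0.09 on the log2(FPKM + 1) scale.

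Rag1, the recombinase subunit, was low in every liver. It was at 0.603, 0.357 and 0.448 FPKM at GD17.5, at 0.337, 0.558 and 0.429 FPKM at Day 0, and at 1.2, 0.717 and 0.406 FPKM at Day 1. The 3 ages overlapped, and 1 mouse of Day 1 stood above all others. From Day 25 on Rag1 was listed at 0 in 11 of 12 mice. Without the filter and with a pseudocount of 0.1, a setting added after the values had been seen, Rag1 in the youngest span exceeded the oldest by 2.29 on that log2 scale (limma, adjusted p = 3.8e-16). Rag2, its partner, had its highest mean at Day 1 too, 0.204 FPKM, and was listed at 0 in all 12 mice of Days 25 to 60.

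Dntt, which encodes the enzyme that adds untemplated bases at the joins (terminal transferase), had another course. Its mean was 0.0128 ± 0.0139 FPKM (SD, n = 3) before birth, 0.0343 ± 0.0152 FPKM on Day 0, 0.241 ± 0.0753 FPKM on Day 5 and 0.656 ± 0.140 FPKM on Day 10. It was then 0.0623 ± 0.0234 FPKM at Day 20 and 0.448 ± 0.355 at Day 60. At Days 25 to 60 every mouse was at 0.162 FPKM or more, at ages where Rag2 was listed at 0. Dntt was below the filter. Without the filter and with a pseudocount of 0.1, Dntt in the youngest span was below the oldest, with a log2 fold change of -1.14 (limma, adjusted p = 4.91e-08).

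Cd79a and Cd79b, the signaling chains of both the pre-B cell receptor and the mature receptor, rose at birth and stayed high longer. Cd79a was at 5.01, 6.33 and 7.40 FPKM at GD17.5 and at 16, 14.2 and 17 FPKM at Day 0, without overlap. It was at 14, 17.9 and 15.2 FPKM at Day 1 and at 10.9, 15.8 and 16.7 FPKM at Day 3. Day 0, Day 1 and Day 3 overlapped one another. Cd79a rose from GD17.5 to Day 0 by 1.22 ± 0.17 on the log2 scale (limma, adjusted p = 1.53e-06), and fell by 0.80 from Day 3 to Day 5 (adjusted p = 0.00577) and by 1.29 from Day 10 to Day 15 (adjusted p = 4.3e-06). The fall from Day 3 to Day 5 missed the threshold without mouse 3 of Day 3 (-0.69). At Days 25 to 60 Cd79a was never at 0, with a range of 0.417 to 0.922 FPKM.

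Cd79b ran in parallel at a higher level. It was at 7.68, 11.7 and 10.9 FPKM at GD17.5, at 28.3, 22.9 and 31.2 FPKM at Day 0, and at 27.5, 35.4 and 31.2 FPKM at Day 1. The rise from GD17.5 to Day 0 was 1.37 ± 0.21 (limma, adjusted p = 4.29e-06). Over the 36 mice Pearson's r of log2(FPKM + 1) between Cd79a and Cd79b was 0.996, the highest of Cd79a with any tested gene. Before birth Cd79b was 162% ± 19.9 (SD, n = 3) of Cd79a, on Day 1 it was 200% ± 4.25 and on Day 10 158% ± 2.08. The ratio therefore moved little, while Cd79a at Day 60 was at 4.65% and Cd79b at 4.02% of the highest age mean.

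Of the transcription factors, Pax5, which commits progenitors to the B lineage, was at 0.601, 1.13 and 0.834 FPKM at GD17.5, at 2.27, 1.36 and 1.58 FPKM at Day 0, and at 2.38, 3.21 and 3.16 FPKM at Day 1. The 3 ages did not overlap. Pax5 rose in both steps, by 0.56 and 0.52 on the log2 scale (limma, adjusted p = 0.00364 and 0.0116). In the first step its mean crossed the 1 FPKM of the filter (0.854 to 1.74 FPKM), which favors a change there. The second call was lost without mouse 2 or 3 of Day 0 (0.43 and 0.49), with a common upper quartile (0.40) and with a pseudocount of 0.1 (0.73, adjusted p = 0.114 by limma, and 0.138 without the filter). At Days 25 to 60 Pax5 was between 0 and 0.235 FPKM. Ebf1, which acts before Pax5 in the lineage, was at 0.351, 0.283 and 0.273 FPKM at GD17.5, at 0.620, 0.414 and 0.653 FPKM at Day 0, and at 0.562, 0.514 and 0.650 FPKM at Day 1. Every Day 0 and Day 1 mouse was above every GD17.5 mouse. Without the filter and with a pseudocount of 0.1, Ebf1 in the youngest span exceeded the oldest by 2.07 on that log2 scale (limma, adjusted p = 1.23e-19).

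Ms4a1, the CD20 antigen that cells gain after the pre-B stage, was the latest. It was at 0.069, 0.026 and 0.0466 FPKM at GD17.5 and at 0.228, 0.161 and 0.112 FPKM at Day 0. At Day 1 it was at 1.96, 1.70 and 1.34 FPKM, and at Day 3 at 2.26, 1.34 and 1.44 FPKM. Every mouse of Days 1 and 3 was thus above every mouse of the ages before. Ms4a1 rose from Day 0 to Day 1 by 1.18 ± 0.13 on the log2 scale (limma, adjusted p = 6.79e-08). Its mean reached 1 FPKM only at Days 1, 3 and 5, so that the filter favored a rise in this step. With no filter and a pseudocount of 0.1 the rise was 2.73 (limma, adjusted p = 4.12e-06). At GD17.5 Ms4a1 was not above Day 60, where it was at 0.084, 0.213 and 0.162 FPKM (log2 fold change -0.14, adjusted p = 0.34).

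Steps between neighboring ages set these orders side by side. In some steps the mean of a gene crossed the 1 FPKM of the filter, which favors a change there. Examples are Ms4a1 from Day 0 to Day 1 and Vpreb1, Igll1 and Pax5 from Day 10 to Day 15. The counts set against all genes are therefore a description. From GD17.5 to Day 0, 4 of the 7 genes rose (Vpreb3, Cd79a, Cd79b and Pax5), against 13.1% of all genes tested. From Day 0 to Day 1, 2 rose (Ms4a1 and Pax5), against 23.7% of all genes, and 2 fell (Vpreb1 and Igll1), against 7.88%. From Day 1 to Day 3 the 3 that fell were Vpreb1, Igll1 and Vpreb3, against 3.09%, and the call for Vpreb3 was lost without mouse 3 of Day 1 (-0.70) or mouse 1 of Day 3 (-0.67) and with a pseudocount of 0.1 (-0.86, adjusted p = 0.0507 by limma, and 0.0623 without the filter). From Day 3 to Day 5 Vpreb3, Cd79a and Pax5 fell, against 2.12%. None of these 3 passed without mouse 3 of Day 3 (-0.74, -0.69 and -0.47) or with a pseudocount of 0.1 (-0.99, -0.86 and -0.93), and Vpreb3 and Pax5 also depended on other single mice of the same ages. From Day 10 to Day 15 all but Ms4a1 fell, 6 of 7, against 10.5%. From Day 15 to Day 20 Vpreb3 fell by 0.76 (1.16% of all genes), and leaving out any one of 10 mice took this call away, the 6 mice of both ages among them (-0.67 to -0.82). After Day 20 limma called 0 of the 7 in any step, while of all genes 7.19% changed in either direction from Day 20 to Day 25, 1.64% from Day 25 to Day 30, 1.03% from Day 30 to Day 45 and 0.233% from Day 45 to Day 60. At an unadjusted p under 0.05, 3 of the 7 were lower at Day 25 than at Day 20, and 0 differed in the later steps. Cd79a was the nearest to the threshold there (-0.54, adjusted p = 0.0537) and passed under several alternatives (-0.54 to -1.03). With no filter and a pseudocount of 0.1, Ms4a1 also fell from Day 20 to Day 25 (-1.22, limma, adjusted p = 0.0465) and Vpreb3 from Day 30 to Day 45 (-1.12, adjusted p = 0.0376).

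From Day 5 to Day 10 limma called 1 of the 7 genes higher and 2 lower, and the difference between the genes was not tested. Igll1 was at 1.59, 0.758 and 1.91 FPKM at Day 5 and at 1.65, 2.91 and 2.47 FPKM at Day 10, and rose by 0.48 (limma, adjusted p = 0.0176; 1.88% of all genes rose). This call was lost without mouse 2 of Day 5 (0.27) or mouse 2 or 3 of Day 10 (0.36 and 0.44). Vpreb1 differed by 0.31, which did not pass, and passed without mouse 1 of Day 10 (0.44). Cd79b and Ms4a1, 2 of the 7, fell by 0.56 and 0.47, a share near the 34.4% of all genes. The call for Cd79b was lost without mouse 1 or 2 of Day 5 (-0.59 and -0.46) or mouse 1 of Day 10 (-0.35). The median of all genes in this step was -0.31, and 0.01 with a common upper quartile. On that scaling Igll1 rose by 0.73 and Vpreb1 by 0.56, and the differences of Cd79b (-0.14) and Ms4a1 (-0.27) did not pass. With no filter and a pseudocount of 0.1, limma called none of the 9 genes in this step: Igll1 differed by 0.74 (adjusted p = 0.0648), Ms4a1 by -0.99 (adjusted p = 0.0511) and Cd79b by -0.61 (adjusted p = 0.148).

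**Figure D3:**
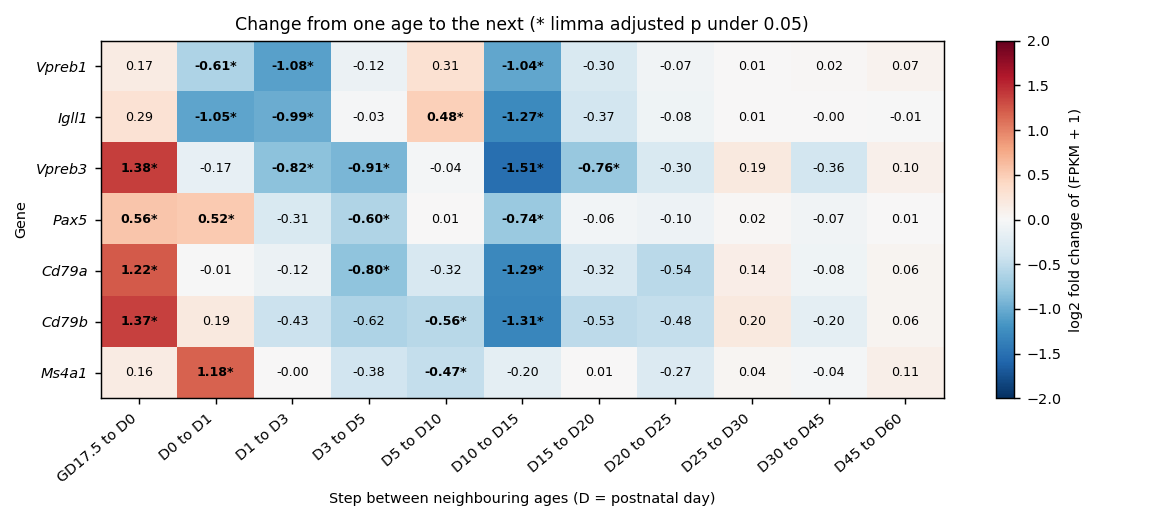
Log2 fold change of (FPKM + 1) between neighboring ages (columns) for the 7 tested genes (rows), with an asterisk where limma gave an adjusted p under 0.05. Rises stand at birth for Vpreb3, Pax5, Cd79a and Cd79b and one step later for Ms4a1 and Pax5, and the step from Day 10 to Day 15 holds falls of 6 genes, from -0.74 to -1.51.

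Ratios within a mouse show how the genes moved against one another, apart from the scaling of the libraries. Igll1 was between 105% and 123% of Cd79a in the mice of GD17.5, between 47.4% and 67.7% on Day 0, between 22.8% and 25.8% on Day 1 and between 7.12% and 11.7% on Day 3. The 4 ages did not overlap. At Day 10 the ratio was back at 37.5%, 38.2% and 38.7%, above every mouse of Day 3 and Day 5 (9.7% to 26.7%). The ratio of Vpreb1 to Cd79a followed, with a mean of 100% ± 9.76 (SD, n = 3) before birth, 10.5% ± 1.27 on Day 3 and 30.7% ± 1.58 on Day 10. Vpreb3 was 172% ± 11.5 of Cd79a before birth, 187% ± 28.9 on Day 0 and 101% ± 12.1 on Day 3.

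Ms4a1 went the other way. It was between 0.411% and 1.43% of Cd79a in the 6 mice of GD17.5 and Day 0, and 8.43% to 20.8% in the 6 mice of Days 1 and 3. At Day 60 it was 20.8% ± 3.69 (SD, n = 3). Pax5 kept to a narrow band for most ages, at 13.7% ± 3.6 of Cd79a before birth, 18.6% ± 1.93 on Day 1 and 13.9% ± 2.5 on Day 5. At Day 10 1 mouse at 29.1% widened the spread of Pax5. Ratios at Days 25 to 60 rest on low values of both genes and scatter widely. These ratios were not tested.

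**Figure D4:**
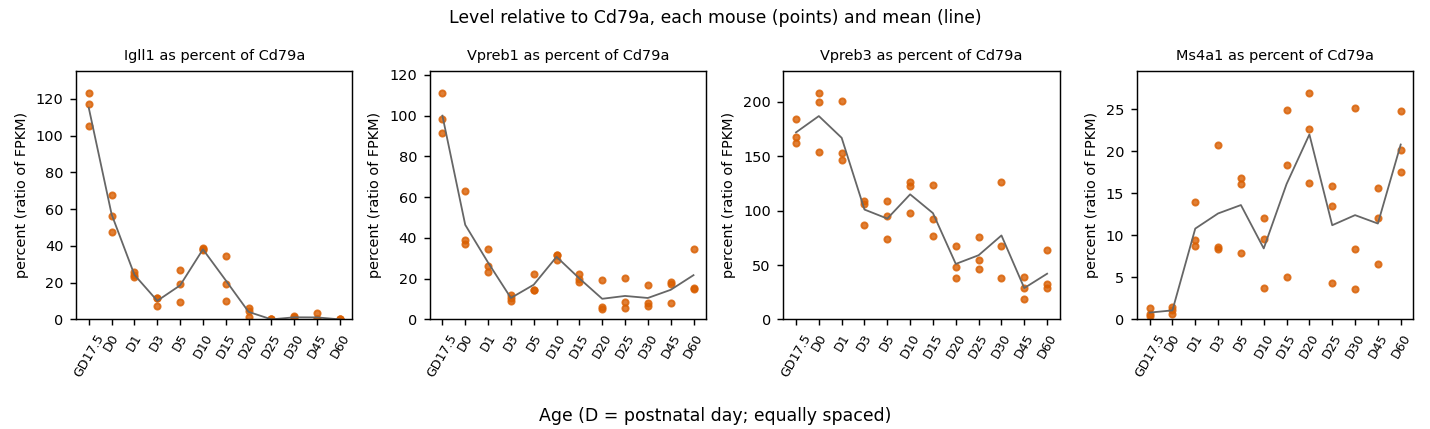
FPKM of Igll1, Vpreb1, Vpreb3 and Ms4a1 as a percentage of Cd79a in the same mouse (linear axes from 0), against age, with 1 point for each mouse and a line through the means. Igll1 and Vpreb1 went from means of 115% and 100% at GD17.5 to 10.1% and 10.5% at Day 3, were at 38.1% and 30.7% at Day 10, and Ms4a1 went from 0.806% at GD17.5 to 12.6% at Day 3.

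Likeness to other genes was taken as Pearson's r of log2(FPKM + 1) over the 36 mice, as a description, because mice of the same age are not independent of it. For Igll1 the 5 most like genes were Vpreb1 (0.988), Bfsp2 (0.973), Vpreb2 (0.965), Rbp2 (0.955) and Dlk1 (0.951). For Cd79a they were Cd79b (0.996), Arl5c (0.986), Pou2af1 (0.984), Cd37 (0.982) and Dok3 (0.982). For Ms4a1 they were Cntnap1 (0.909), Gzmb (0.902), Hadhb (0.899), Adamts15 (0.896) and Tor1b (0.887), none of them a listed B lineage gene. Among the 9 genes themselves the 36 pairs had r from 0.25 to 1.0 over all mice, with a median of 0.85. For deviations from the age mean in the 18 mice of GD17.5 to Day 10, the same pairs had r from -0.61 to 0.92, with a median of 0.18 and 21 of 36 above 0.

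The other genes of the lineage were read from 5 lists with 63 genes besides the 9. Of these, 58 were in the table, 40 were tested, and 36 were higher and 3 lower at GD17.5 to Day 5 than at Days 25 to 60, with a median log2 fold change of 1.17 (34 higher, 4 lower and 0.81 with a common upper quartile). The share over all genes tested was 70.2% higher, with a median of 0.54, and 23 of the 40 genes reached 1 FPKM only before Day 25, so that the counts of these lists are a description as well. In the receptor signaling list all 11 tested genes were higher (70.2% of all genes), with a median of 0.99. Plcg2, the phospholipase downstream of the receptor, differed by 2.47 ± 0.09 (5.22 to 12.5 against 0.308 to 0.99 FPKM). Btk, the kinase that activates it, differed by 1.84 ± 0.05. With a common upper quartile 10 of these 11 were higher. Ighm and Igkc, the immunoglobulin constant genes, were not among the gene symbols used here, so the switch to a true light chain could not be followed.

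Against the same 70.2% of all genes, 10 of the 11 other tested transcription factors were higher and 1, Id3, an inhibitor of E proteins, was lower (-0.45). Ikzf1 (Ikaros), an early lymphoid factor, differed by 3.01 ± 0.10, the E2A gene Tcf3 by 2.38 ± 0.08 and Bcl11a by 2.34 ± 0.06. Each of them had its highest mean at GD17.5. The summed markers of erythroid and of dividing cells, described below, were highest at that age too (means of 158264 and 487 FPKM). The part of such cells in the levels of these 3 genes was not tested. In the list of IL-7 and progenitor signals 7 of 9 tested genes were higher, a share near that of all genes, and Cxcl12 lower (-0.36), and Spn (CD43), a surface protein of early B cells and of many other blood cells, led with 3.15 ± 0.06. Il7r, the IL-7 receptor chain, was below the filter, with 0.635 ± 0.272 FPKM (SD, n = 3) at Day 1 and 0.03 ± 0.0117 FPKM at Day 60. Of the 8 other tested genes of mature B cells 7 were higher and Cd74, the invariant chain of class II antigen presentation, was lower (-0.32). Cd37, Ly6d and Fcrla led, by 3.04, 1.85 and 1.71. Their highest means were at Day 0, Day 3 (11.4 ± 2.71 FPKM) and Day 1. Cr2, a receptor of follicular B cells, had no age mean above 0.0198 FPKM. Of 4 tested plasma cell genes 3 were lower, led by Sdc1 (-1.26), which hepatocytes express as well, while Irf4 was higher (0.76) and Derl3 lower (-0.71).

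Markers of other cells of the liver were read over the same spans, where 70.2% of all genes were higher in the younger one. All 9 genes of erythroid cells, all 9 of granulocytes and all 9 of dividing cells were higher at GD17.5 to Day 5, with median log2 fold changes of 5.13, 7.37 and 2.98, against 2.21 for the 7 B lineage genes. With no filter and a pseudocount of 0.1 these medians were 6.12, 9.17 and 4.47, against 3.88 for the 9 genes. Of the tested genes, 4 erythroid, 6 granulocyte and 2 dividing cell genes reached 1 FPKM only before Day 25. So did 5 of 6 T cell, 2 of 3 NK cell and 1 of 4 plasma cell genes. The counts and medians of these lists are therefore a description too. The summed granulocyte markers were between 1671 and 4309 FPKM in the 15 youngest mice and between 1.16 and 8.45 FPKM in the 12 oldest, led by Ngp (8.46), S100a8 (8.29) and S100a9 (8.15). The erythroid sum was between 21506 and 185342 against 650 to 5673 FPKM, with differences of 8.35 for Slc4a1 and 5.19 for Klf1, and that of dividing cells between 127 and 512 against 4.38 to 38 FPKM, led by Birc5 (4.12), Mcm2 (3.87) and Mcm5 (3.85). Several genes of the B lineage lists, Ikzf1, Btk, Plcg2, Spn and Cd37 among them, are used by other blood cells too. Of the T cell markers 4 of 6 tested were higher, near the share of all genes, Lat (1.92) and Lck (1.40) among them, and Zap70 lower (-1.6), with a sum of 6.52 to 14.7 against 4.62 to 8.48 FPKM. All 3 tested NK cell markers were higher, Gzma (3.18), Gzmb (1.22) and Il2rb (0.71), with a sum of 2.89 to 65.2 against 0.975 to 5.34 FPKM. Of 8 Kupffer cell markers 6 were higher and 2 lower (4 and 2 with a common upper quartile), again near the share of all genes, led by Marco (1.91), Emr1 (1.48) and C1qb (1.19), with a sum of 115 to 345 against 92 to 199 FPKM. Of 6 hepatocyte markers 2 were higher, Afp (11.41) and Apoa1 (0.43), and 3 lower (1 and 4 with a common upper quartile), Serpina1c (-2.04) and Alb (-1.39) among them, with a sum of 11295 to 59814 against 46527 to 63339 FPKM. No marker of these other cells was listed at 0 in every mouse of a span. The part of these cells in the course of the 9 genes was not tested.

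**Figure D5:**
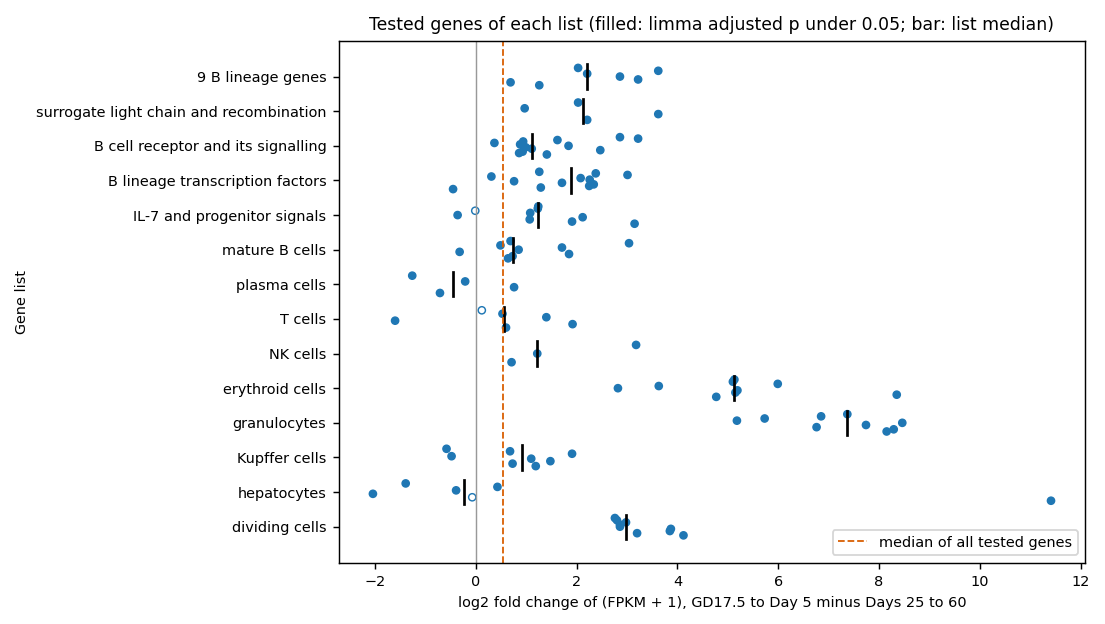
Log2 fold change of (FPKM + 1) of GD17.5 to Day 5 against Days 25 to 60 for each tested gene (points, filled where limma gave an adjusted p under 0.05) of the 9 B lineage genes and of the other lists, with the list median (bar) and the median of all tested genes, 0.54 (dashed line). The 9 genes are also plotted within the B lineage lists they belong to, and the granulocyte, erythroid and dividing cell lists have higher medians than the B lineage genes.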

How the data were processed

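The authors mapped paired reads of polyadenylated liver RNA (an unstranded TruSeq kit) to mm9 with TopHat and estimated abundance with Cufflinks. The transcripts it predicted were compared with Ensembl annotation by Cuffcompare. The submitters' processing notes name TopHat 1.2.0 and Cufflinks 1.0.3. They deposited 1 FPKM value for each of 21889 gene symbols in each of 36 mice, with no counts, so the fragments behind a value and their counting error are not given here. Summed FPKM was between 353712 and 450597 per mouse, and mice of one age had r of at least 0.952.

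Values were tested as log2(FPKM + 1) with limma 3.58.1 in R 4.3.3, with one mean per age over all 36 mice and a mean-variance trend, for the 11149 genes whose mean reached 1 FPKM at some age. Groups came from the age in the sample labels. P-values were Benjamini-Hochberg adjusted over all genes in each comparison and, for a change at any age, over all genes and the 11 comparisons with Day 60. The threshold was 0.05, two-sided. Errors are SD over mice or SE of the fit. The mice of an age were drawn at random from several litters, which the labels do not name, so p-values measure the spread between these mice. Fits were tested on simulated data. Ratios, sums and figures were made with Python 3.11.15.

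The 9 genes and the gene lists were chosen with earlier results of these data known. Named besides the 9 were Vpreb2, Rag2, Dntt, Ighm, Igkc and Il7r, in each list the 3 called genes with the largest fold change between GD17.5 to Day 5 and Days 25 to 60, and the 5 genes most like Igll1, Cd79a and Ms4a1. Results for some genes under this rule are not reported here. Top3b, Id3, Cxcl12, Cd74, Cr2 and Apoa1 were named after their values were seen. Positions are from GENCODE M1 on mm9 and start-site windows from RefSeq (GRCm38.p6), placed on mm9 by exact match. Alternatives were a pseudocount of 0.1, no filter or one at 5 FPKM, a common upper quartile, TPM, a replicate block, no trend, Dunnett's comparison, adjustment within comparisons, each mouse left out, and, chosen after seeing the data, no filter with a pseudocount of 0.1.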

Additional observations from a re-analysis of the deposited data

How the results depend on the processing

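The 7 tested genes changed from Day 60, and were higher at GD17.5 to Day 5 and at Days 10 to 20 than at Days 25 to 60, without a shift in these counts by over 1.5 times in any alternative run, which is no sign of stability for the 6 that passed the filter only at younger ages. No result reversed. With no filter and a pseudocount of 0.1, which also tests Rag1 and Ebf1, 7 genes were higher than Day 60 at Day 15 (main 4). At Day 20 (main 0) the count was 2 with a pseudocount of 0.1, 2 with TPM, 2 with no filter and a pseudocount of 0.1 and 1 with a common upper quartile. Rises from Day 0 to Day 1 (main 2) were 1 with a pseudocount of 0.1, 1 with a common upper quartile, 1 with no filter and a pseudocount of 0.1 and 0 with a filter at 5 FPKM. Falls in that step (main 2) were 1 with a pseudocount of 0.1, with or without the filter. Falls from Day 1 to Day 3 (main 3) were 5 with no filter. Falls from Day 3 to Day 5 (main 3) were 0 with a pseudocount of 0.1 and 1 with no filter besides. Rises from Day 5 to Day 10 (main 1) were 2 with a common upper quartile and 0 with no filter and a pseudocount of 0.1. Falls in that step (main 2) were 1 with a pseudocount of 0.1, no filter, a filter at 5 FPKM or TPM, and 0 with a common upper quartile or with no filter and a pseudocount of 0.1. Falls from Day 15 to Day 20 (main 1) were 3 with a pseudocount of 0.1, with or without the filter, and 0 with no filter. Of the other B lineage genes, 21 were higher with a filter at 5 FPKM (main 36), where fewer genes are tested. Where no construction is named, the cause was not tested.

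With each mouse left out in turn, rises from Day 0 to Day 1 ranged from 1 to 2, falls in that step from 1 to 2, falls from Day 3 to Day 5 from 0 to 3, rises from Day 5 to Day 10 from 0 to 2, falls in that step from 1 to 2, and falls from Day 15 to Day 20 from 0 to 1. Mice of the same replicate number are different animals. Their deviations had r from -0.68 to 0.829 (median 0.126, against -0.0476 for other numbers), and 19 of 36 mice were closest to their own number. By the median, mice of one number were thus more alike than others, and what they share was not tested. Because the mice are different animals, the numbers were not taken as pairs in the main fit. The replicate block changed none of these counts by over 1.5 times (7 genes changed from Day 60) and, of the calls of single genes, changed only that of Cd79a from Day 20 to Day 25 (-0.54), which it added. Low FPKM limit Rag1, Ebf1 and all 9 genes after Day 20.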
